A study of Rattus norvegicus with 15 samples.

Results

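Pax7 and the 4 myogenic regulatory factors, Myf5, Myod1, Myog and Myf6, were followed in rat multifidus muscle across 5 groups. These 5 genes were found by symbol among 37991 genes, each symbol belonged to 1 gene identifier, and all 5 passed the filter on low counts that left 17201 genes for testing. Adult skeletal muscle keeps satellite cells, resting stem cells marked by the paired-box factor Pax7, beside its fibres. When fibres are injured these cells divide as myoblasts that express the basic helix-loop-helix factors Myf5 and Myod1, and myogenin (Myog) then drives their exit from the cell cycle and their fusion. Myf6, also called MRF4, is the factor that mature fibres keep at a high level, while Myog is also known to be switched on inside fibres that lose their nerve supply.

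All rats were wild type male Sprague Dawley animals aged 12 weeks. Control rats (2 libraries) had no injury and surgery rats (2 libraries) had spinal surgery with no further treatment. By the paper's methods the operation was a hemilaminectomy, in which a left spinal nerve was also ligated. After the same surgery, the pMT group (4 libraries) received mitochondria isolated from pooled human plasma (pMT) in the left paraspinal muscles, 25 μg at each site and 50 μg in all. The VitD group (3 libraries) received cholecalciferol at 150 μg for each site and 300 μg in all, and the pMT/VitD group (4 libraries) received both agents at these doses. The pMT injection was given on day 14 after surgery, and tissue of the control, surgery and pMT groups was taken on day 28. Days for the VitD and pMT/VitD groups were not given in the sources used here. Every injected group also had surgery, and a group injected with buffer alone was not analysed here. Surgery and injection thus cannot be told apart in a comparison with control. In a comparison of an injected group with surgery, the agent cannot be told apart from its buffer and the act of injection. Libraries are numbered within groups, with no statement that each came from a separate rat, so p-values measure the spread between these libraries.

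Total counts ranged from 52342134 in pMT/VitD 4 to 73557878 in pMT 2. The libraries read as skeletal muscle, since the 14 muscle fibre markers summed to between 111409 TPM in VitD 1 and 157550 TPM in pMT/VitD 4. Acta1 was the most abundant, and these markers do not tell multifidus from other skeletal muscles. TPM values, abundances corrected for gene length, were used to compare genes. CPM values, counts scaled by library size and edgeR's TMM factors, were used to compare the members between libraries, while marker sums and shares are in TPM. No pair of libraries agreed within sampling noise.

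The libraries pMT 4 and pMT/VitD 4 stood apart from their groups. The nearest library to pMT 4 in abundant genes was pMT/VitD 1, and mitochondrial protein genes took 22.6% of its counts against 11.1% to 12.9% in the other pMT libraries. The nearest library to pMT/VitD 4 was control 1, which was also the nearest to pMT/VitD 3. In abundant genes these 3 libraries were thus closer to a library of another group than to any of their own, as were the 3 VitD libraries, whose nearest was surgery 2. Whether labels are right was not tested and no library was moved, so that the comparison of pMT/VitD with pMT holds for the groups as labelled. VitD 1 lay farthest from its nearest library, surgery 2, with an SD of log2 ratios of 0.383 against at most 0.248 for any other library. Calls on groups with pMT are also given without both libraries numbered 4.

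Per length, Myf6 was the most abundant of the 5 genes in every library, at 95.8 to 183 TPM. Myog followed at 15.8 to 64.5 TPM and Myod1 at 10.5 to 19.6 TPM. The satellite cell genes were lowest, with 0.931 to 2.34 TPM for Pax7 and 0.672 to 2.38 TPM for Myf5. The ranges of Myog and Myod1 overlapped across libraries, as did those of Pax7 and Myf5, whereas Myf6 lay above the other 4 in all 15 libraries. Pax7 and Myf5 are genes of a small cell population in a tissue made mostly of fibres. For all members, fewer cells of a type and less RNA per cell cannot be told apart in bulk muscle. Myf5 rested on 58 to 224 counts per library, a counting error of 13.1% to 6.68%, and Pax7 on 203 to 581. Myod1 had 1001 to 2065 counts, Myog 941 to 5052 and Myf6 5125 to 12592, so that counting error for these 3 genes was at most 3.26%.

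**Figure D1:**
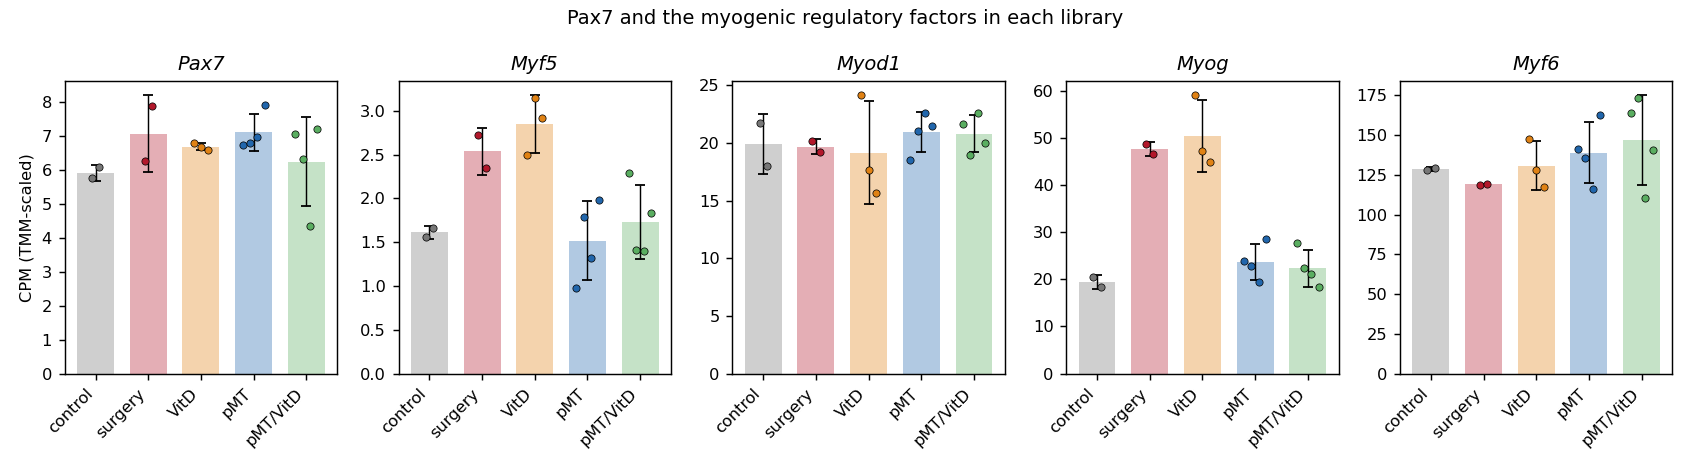
TMM-scaled CPM (vertical axis, linear from 0, a separate scale for each gene) of the 5 genes in the 5 groups; points are libraries, bars group means and error bars 1 SD. Myog lies between 44.8 and 59.1 CPM in the surgery and VitD libraries and between 18.3 and 28.6 CPM in all others.

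Myog (gene 29148), the factor of terminal differentiation, measured 20.5 and 18.3 CPM in the 2 control libraries and 48.7 and 46.6 CPM in the 2 surgery libraries. The VitD libraries had 59.1, 47.2 and 44.8 CPM. Both groups with surgery but no pMT were thus high in every library, with no overlap with control. In the pMT libraries Myog stood at 23.9, 22.8, 19.4 and 28.6 CPM, and in the pMT/VitD libraries at 27.6, 22.3, 21.1 and 18.3 CPM. All 8 libraries given pMT were below all 5 operated libraries without it, and their range overlapped that of control. The group means ran from 50.4 ± 7.66 CPM (SD, n = 3) in VitD and 47.6 ± 1.48 CPM (SD, n = 2) in surgery to 23.7 ± 3.79 CPM (SD, n = 4) in pMT, 22.3 ± 3.91 CPM (SD, n = 4) in pMT/VitD and 19.4 ± 1.53 CPM (SD, n = 2) in control. Only the step between surgery and pMT in this order was larger than the spread between libraries by edgeR's quasi-likelihood test with Benjamini-Hochberg adjustment.

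The comparison of surgery with control asks what the operation alone did. Myog was the member called, 1 of 5, where 1.55% of the tested genes were called. It was 2.45-fold higher after surgery, with a log2 fold change of 1.29 and a standard error of 0.200 (adjusted p = 0.00817 by edgeR's quasi-likelihood test with Benjamini-Hochberg adjustment), and higher in 2 of 2 surgery libraries. Groups did not overlap for Myog, Pax7, Myf5 and Myf6, which says little with 2 libraries each, since 66.1% of tested genes had no overlap. The Myog call needed all 4 libraries. With 1 left out, the remaining library being assumed to vary like the other groups, the adjusted p from edgeR's quasi-likelihood test was 0.124 without control 1, 0.161 without control 2, 0.0855 without surgery 1 and 0.0659 without surgery 2, while the log2 fold change stayed between 1.22 and 1.38 over all single omissions.

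Operated rats given VitD alone were also compared with control. In this comparison, which shares the control libraries with the previous one, 8.67% of genes were called, and again 1 of 5 members, Myog, passed. Its log2 fold change was 1.37 with a standard error of 0.188 (adjusted p = 0.00238 by edgeR's quasi-likelihood test with Benjamini-Hochberg adjustment), with 3 of 3 VitD libraries higher. Without control 1 or control 2 the adjusted p from the same edgeR test was 0.0592 or 0.0548, and it stayed under 0.05 without VitD 1. Between VitD and surgery, 0 of 5 members and 0% of genes were called by edgeR's quasi-likelihood test, 0 members and 139 genes had an unadjusted p under 0.05, and DESeq2 called 0 members and 1 gene. The log2 fold change of Myog between them was 0.080, with a 95% confidence interval of -0.30 to 0.46.

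Injection of pMT was compared with surgery alone, to ask what it changed in operated muscle. Myog fell in the pMT group by 1.01 on the log2 scale (standard error 0.165, adjusted p = 0.00744 by edgeR's quasi-likelihood test with Benjamini-Hochberg adjustment), with 4 of 4 pMT libraries lower. It was the single member called, against 1.94% of genes. Without both libraries numbered 4 the log2 fold change was -1.13 (adjusted p = 0.00164 by the same edgeR test). The call was lost without surgery 1 (adjusted p = 0.134 by edgeR's test) and without surgery 2 (adjusted p = 0.0908 by edgeR's test).

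With pMT and VitD together, set against the same surgery libraries, Myog was again the 1 member called, where 7.44% of genes were. It fell by 1.09 on the log2 scale (standard error 0.165, adjusted p = 0.00246 by edgeR's quasi-likelihood test with Benjamini-Hochberg adjustment), and 4 of 4 libraries were lower. Without both libraries numbered 4 the value was -1.02 (adjusted p = 0.00105 by the same edgeR test), and no single omission ended the call. Between pMT/VitD and pMT, 0 of 5 members and 0% of genes were called by edgeR's quasi-likelihood test, with 0 members and 1737 genes at an unadjusted p under 0.05, and DESeq2 called 0 members and 97 genes. Without both libraries numbered 4, 3136 genes but still 0 members were called. The log2 fold change of Myog was -0.084 (95% confidence interval -0.38 to 0.22) and 0.11 without those libraries. The gene length trend of a library, as a correlation (rho), was 0.018 to 0.45 in pMT 1 to 3 and -0.39 to -0.17 in pMT/VitD 1 to 3. It was -0.32 in pMT 4 and 0.15 in pMT/VitD 4, and its part in the 3136 calls was not tested.

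Against control, pMT and pMT/VitD muscle gave 0 of 5 members called in each case, with 0% of genes called. An unadjusted p under 0.05 was reached by 0 members in both and by 528 and 496 genes, and DESeq2 called 0 genes in either. Myog was 0.28 higher in pMT than in control on the log2 scale, with a 95% confidence interval of -0.085 to 0.65, and 0.20 higher in pMT/VitD, with an interval of -0.17 to 0.57. Both upper bounds lie below 0.87, the lower bound of the interval for surgery against control. For protein, by Western blot, the paper reports less myogenin after surgery and its restoration with pMT. Those directions are opposite to the RNA of Myog here, and how RNA and protein relate was not tested.

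All 8 libraries with pMT were then set against the 5 operated libraries without it, with the mean of the pMT and pMT/VitD groups taken against the mean of surgery and VitD. It called 2 of 5 members, Myog and Myf5, where 23.3% of genes were called. Myog averaged 23.0 CPM in the 8 libraries and 49.3 CPM in the 5, with -1.09 as log2 fold change and 0.111 as its standard error (adjusted p = 3.07e-05 by edgeR's quasi-likelihood test with Benjamini-Hochberg adjustment). Without both libraries numbered 4 the log2 fold change was -1.11, and every single omission kept the call. Only Myog and Myf5 among the 5 had no overlap between the 8 and the 5 libraries, where 11.4% of tested genes had none. The interaction of pMT and VitD, a test added after the data were seen, called 0 of 5 members and 0 genes by edgeR's quasi-likelihood test, with 0 members and 888 genes at an unadjusted p under 0.05 and 0 genes by DESeq2. Without both libraries numbered 4 it called 325 genes and 0 members.

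**Figure D2:**
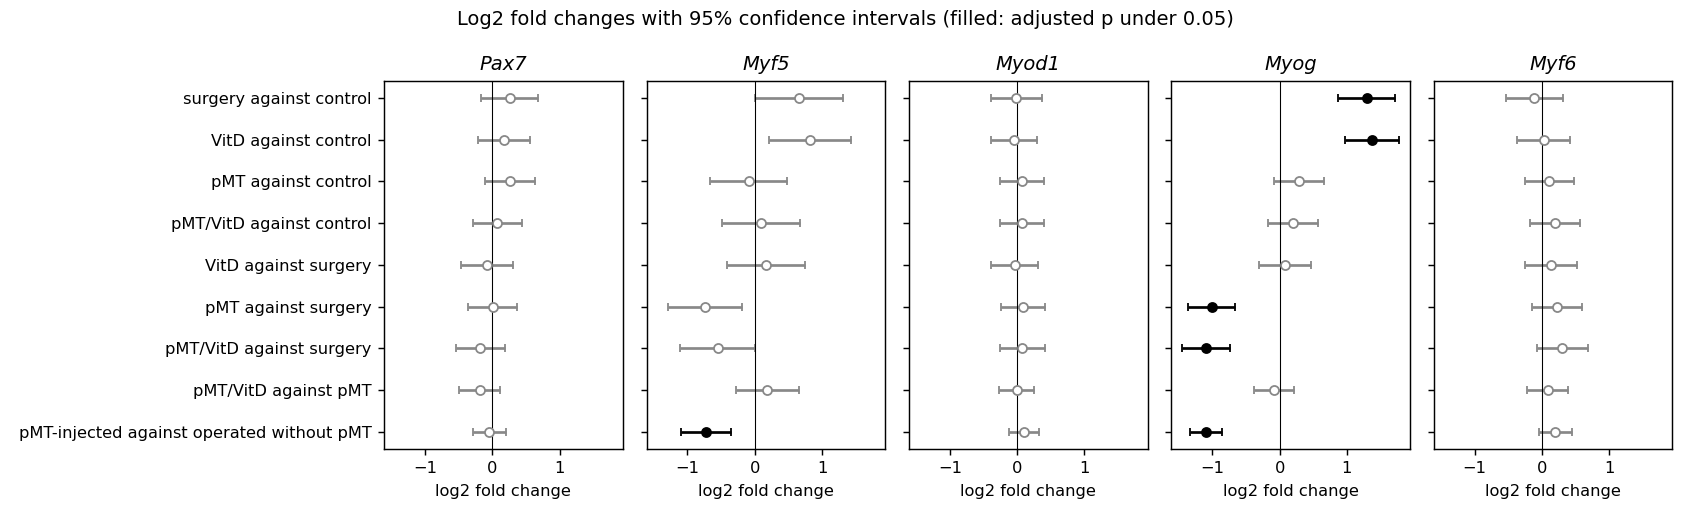
Log2 fold change (horizontal axis) of each gene in 9 comparisons (vertical axis); points are estimates of edgeR's quasi-likelihood fit over all 15 libraries, bars 95% confidence intervals, and filled points have an adjusted p under 0.05. Filled points occur for Myog in 5 comparisons and for Myf5 in 1.

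Myf5 (gene 299766), expressed in satellite cells and early myoblasts, was the least abundant factor. It measured 1.56 and 1.67 CPM in control and 2.73 and 2.35 CPM in surgery. The VitD libraries had 2.49, 3.14 and 2.92 CPM. Values in surgery and VitD were above both control libraries. In the pMT libraries Myf5 was at 0.977, 1.79, 1.32 and 1.98 CPM, and in pMT/VitD at 2.29, 1.41, 1.40 and 1.83 CPM. All 8 were below the 5 operated libraries without pMT, although pMT/VitD 1 came close to surgery 2.

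Across those 8 and 5 libraries Myf5 averaged 1.62 and 2.72 CPM, with -0.73 as log2 fold change and 0.173 as its standard error (adjusted p = 0.00817 by edgeR's quasi-likelihood test with Benjamini-Hochberg adjustment). It was -0.83 without both libraries numbered 4 (adjusted p = 0.00405 by edgeR's test), and without surgery 1 the adjusted p was 0.0507 by the same edgeR test. Myf5 was called in 0 of the 8 pairs of groups compared by edgeR's quasi-likelihood test, with an unadjusted p under 0.05 in 2 of them and a call by DESeq2 in 1. Neither pMT nor pMT/VitD was compared with VitD alone. The log2 fold change of Myf5 was 0.65 in surgery against control (adjusted p = 0.295 by edgeR's quasi-likelihood test with Benjamini-Hochberg adjustment) and 0.82 in VitD against control (adjusted p = 0.0870 by the same edgeR test). For surgery against control the adjusted p ran over all alternatives from 0.00247 by edgeR's exactTest, at a fold change under the 2-fold of that rule, to 0.689 by edgeR's quasi-likelihood test without surgery 1. The VitD difference passed with DESeq2 (adjusted p = 0.0408), with scaling by library size only (adjusted p = 0.0175 by edgeR's test) and without both libraries numbered 4 (adjusted p = 0.0490 by edgeR's test). Over its alternatives the adjusted p ran from 0.0103 by edgeR's exactTest to 0.359 by edgeR's quasi-likelihood test without control 1. Values of -0.74 in pMT against surgery and -0.55 in pMT/VitD against surgery did not pass, except the latter with scaling by library size only (adjusted p = 0.0258 by edgeR's test).

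Over all 5 groups together, 1 member, Myog, was called (adjusted p = 0.000270 by edgeR's quasi-likelihood test with Benjamini-Hochberg adjustment), against 11.8% of genes. Myf5 lay just beyond the threshold in that test (adjusted p = 0.0532 by edgeR's quasi-likelihood test). It passed without both libraries numbered 4 (adjusted p = 0.0164), without pMT 4 (0.0257), without pMT/VitD 1 (0.0409) or without pMT/VitD 4 (0.0473), all by edgeR's test, in a range of 0.00508 to 0.164 over its alternatives.

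Pax7 (gene 500574), which marks satellite cells and maintains them, was called in none of the comparisons made. Its CPM ran from 4.36 in pMT/VitD 3 to 7.93 in pMT 4, with group means of 5.92 ± 0.229 (SD, n = 2) in control, 7.08 ± 1.14 (SD, n = 2) in surgery, 6.69 ± 0.106 (SD, n = 3) in VitD, 7.11 ± 0.553 (SD, n = 4) in pMT and 6.24 ± 1.31 (SD, n = 4) in pMT/VitD. Both control libraries were below every surgery, VitD and pMT library, and pMT/VitD 3 lay below control. The log2 fold change of Pax7 after surgery was 0.26, with a 95% confidence interval of -0.17 to 0.68.

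Myod1 (gene 337868), the factor that commits activated satellite cells to the muscle lineage, held group means between 19.2 ± 4.44 CPM (SD, n = 3) in VitD and 20.9 ± 1.73 CPM (SD, n = 4) in pMT. The highest and the lowest library, at 24.2 and 15.7 CPM, were both in the VitD group. For surgery against control its log2 fold change was -0.014 (95% confidence interval -0.39 to 0.36), and for all pMT libraries against operated libraries without pMT it was 0.10 (interval -0.11 to 0.32). The VitD group alone thus spanned the range of all 15 libraries.

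Myf6 (gene 25714), the factor of mature fibres, ranged from 110 CPM in pMT/VitD 3 to 174 CPM in pMT/VitD 2. Its group means were 119 ± 0.315 CPM (SD, n = 2) in surgery, 129 ± 1.13 CPM (SD, n = 2) in control, 131 ± 15.2 CPM (SD, n = 3) in VitD, 139 ± 19.0 CPM (SD, n = 4) in pMT and 147 ± 28.2 CPM (SD, n = 4) in pMT/VitD. Spread within the pMT and pMT/VitD groups exceeded the differences between neighbours in this order. Between all pMT libraries and the operated libraries without pMT the log2 fold change of Myf6 was 0.20 (95% confidence interval -0.052 to 0.44). When libraries were scaled by size only, the directions of Myod1 and Myf6 in this comparison turned, to -0.15 and -0.0596, in a scaling that moved the median of all genes to -0.23. Relative to that median they were 0.079 and 0.17.

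The balance among the 4 regulatory factors was read from TPM. Myog made up 11.2% and 10.2% of their sum in the control libraries, 24.2% and 23.5% in surgery and 24.0%, 22.6% and 23.3% in VitD. The share was 11.4% to 12.4% in the pMT libraries and 9.39% to 12.8% in pMT/VitD. High shares were thus found in exactly the 5 libraries with surgery and no pMT. Myf6 took 67.3% to 70.0% there and 76.3% to 84.1% in the other 10. Shares of the same sum are bound to each other, so a higher share of Myog lowers that of Myf6. Myf6 itself had 144.6 and 145.3 TPM in surgery and 125.3 and 127.1 TPM in control. The ratio of Myog to Myod1 in TPM was 1.32 ± 0.0690 (SD, n = 2) in control, 3.26 ± 0.0121 (SD, n = 2) in surgery, 3.58 ± 0.280 (SD, n = 3) in VitD, 1.53 ± 0.291 (SD, n = 4) in pMT and 1.45 ± 0.242 (SD, n = 4) in pMT/VitD.

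**Figure D3:**
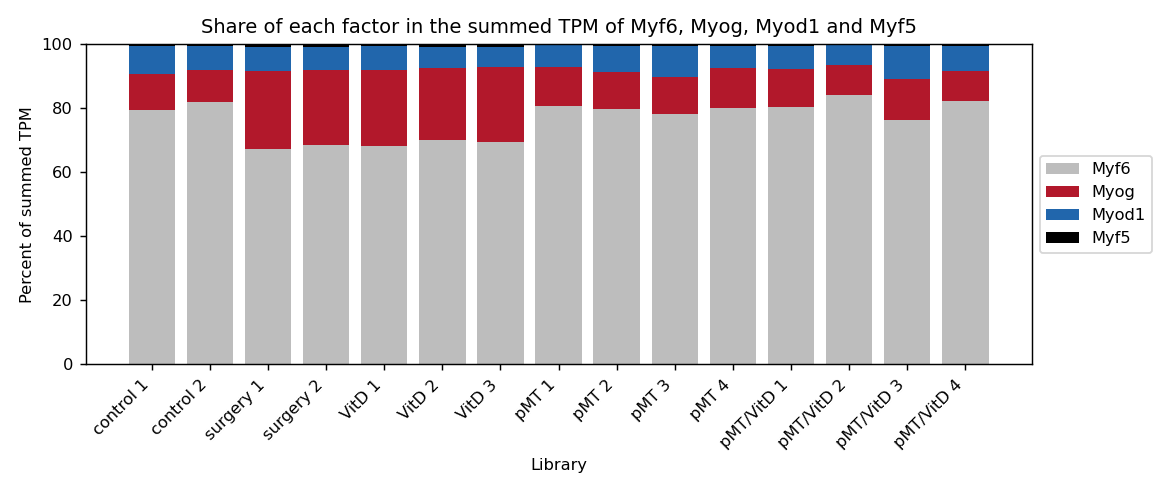
Share of each factor (vertical axis, percent) in the summed TPM of Myf6, Myog, Myod1 and Myf5 for each library (horizontal axis). Myog takes 22.6% to 24.2% in surgery and VitD libraries and at most 12.8% in the others.

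Other genes of the satellite cell and myogenic programme were counted beside the members, in lists to be read against the 1.55% of all tested genes called after surgery and the 23.3% called in pMT libraries against operated libraries without pMT. Of 17 satellite cell genes, 2 were called after surgery, both higher, and their median log2 fold change was 0.37 against -0.014 over all tested genes. These were Cd82, a tetraspanin of satellite cells (0.79), and Megf10, a receptor that keeps them in proliferation (0.54). None of the lists holds a member. The satellite cell list had 2 higher and 5 lower genes in all pMT libraries against operated libraries without pMT, with a median of -0.10 against 0.015 over all genes. The 2 higher were Cdh15 (0.25) and Sdc4 (0.40), which had -0.23 and -0.52 after surgery without a call. Of 19 fusion and differentiation genes, 3 were higher after surgery (median 0.36) and 9 lower with pMT (median -0.30), with none in the other direction. Among these, the fusion peptide myomixer, listed as LOC108352018, had log2 fold changes of 2.82 after surgery and -2.70 with pMT, and the fusion protein myomaker, listed as Tmem8c, -1.51 with pMT. Cardiac actin Actc1, the embryonic actin of forming fibres, had 3.33 and -3.15. How reads shared with other actin genes were counted was not stated.

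Denervation-induced genes, 14 in number, showed 4 higher after surgery with a median of 1.39, and 11 lower and 1 higher with pMT with a median of -1.14. The acetylcholine receptor subunit Chrna1, a target of Myog, had log2 fold changes of 1.49 after surgery and -1.44 with pMT, beside the 1.29 and -1.09 of Myog itself. Not every gene of this list ran with Myog. Trim63 had 0.0018 after surgery and 0.15 with pMT, Fbxo32 had -0.14 and 0.17, and neither was called in these comparisons. Cell division genes (23) gave 0 calls after surgery by edgeR's quasi-likelihood test, with 12 at an unadjusted p under 0.05, 3 called by DESeq2 and a median of 0.66, and 13 lower and 1 higher with pMT, with a median of -0.66. Of 16 partners of the factors 0 were called after surgery by edgeR's quasi-likelihood test, 3 had an unadjusted p under 0.05 and DESeq2 called 1, while 3 were higher and 1 lower with pMT. Of 19 tested antagonists 0 were called after surgery by the same edgeR test, 4 had an unadjusted p under 0.05 and DESeq2 called 0, while 1 was higher and 3 were lower with pMT. Called shares with pMT were 25% for partners, 21.1% for antagonists and 20% for Notch pathway genes, near the 23.3% of all genes. Notch pathway genes (15) gave 1 higher after surgery, the Notch target Heyl (0.61), and 1 higher and 2 lower with pMT. Of 14 tested niche signals 0 were called after surgery by edgeR's test, with 3 at an unadjusted p under 0.05 and 2 called by DESeq2, and 2 were higher and 3 lower with pMT, among them the growth factor Igf2 (-1.05).

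The summed markers of macrophages and of fibroblasts were high in the same libraries as Myog. The 7 macrophage markers summed to 50.3 and 49.4 TPM in control, 107 and 109 TPM in surgery, 129, 111 and 100.1 TPM in VitD. In the pMT libraries the sum was 54.2, 64.5, 70.4 and 35.6 TPM and in pMT/VitD 31.9, 30.2, 41.3 and 58.4 TPM, so every operated library without pMT lay above all others. In TMM-scaled CPM the same sum was 185 to 212 in the operated libraries without pMT and 70.2 to 131 in the rest. All 7 were called lower with pMT, 2 were called higher after surgery, Aif1 was the most abundant on average, and none was at 0 in any library. The 6 fibroblast markers, led on average by Dcn, summed to 1021 and 1076 TPM in control, 1852 and 1888 TPM in surgery and 2842, 1926 and 1675 TPM in VitD. Their sum was 1273, 1366, 1441 and 854 TPM in pMT and 706, 704 and 828 TPM, then 1192 TPM, in pMT/VitD, with 4 of 6 called lower with pMT and none at 0. In TMM-scaled CPM they summed to between 3694 and 6882 in the operated libraries without pMT and between 1917 and 2932 in the rest, although Dcn itself had a log2 fold change of -0.18 after surgery. After surgery edgeR's test called 0 of these 6, with 4 at an unadjusted p under 0.05 and 2 called by DESeq2. Muscle fibre markers gave 0 of 14 called after surgery by edgeR's test, with 2 at an unadjusted p under 0.05 and 1 called by DESeq2, and 3 higher with pMT, Des, Pygm and Myh4, a share of 21.4% against 23.3% of all genes. With pMT 6 of these 14 had an unadjusted p under 0.05 and DESeq2 called 7, where it called 4633 of 24728 genes in all. Neither edgeR's test nor DESeq2 called any of the 6 endothelial, 6 Schwann, 4 mural, 4 adipocyte and 4 tested lymphocyte markers after surgery, where 2, 1, 1, 0 and 0 of them had an unadjusted p under 0.05. With pMT, 1 endothelial marker was called higher and 1 lower, and 1 Schwann, 1 mural and 1 lymphocyte marker lower. Of the adipocyte markers 0 were called with pMT by edgeR's test or DESeq2, and 1 had an unadjusted p under 0.05. Lymphocyte markers, led on average by Cd79b, summed to 0.380 and 0.437 TPM in control, 1.19 and 1.79 TPM in surgery and 2.35, 1.99 and 1.49 TPM in VitD. They summed to 0.345, 0.265, 0.661 and 0.600 TPM in pMT and 1.08, 0.541, 0.299 and 0.0635 TPM in pMT/VitD. The operated libraries without pMT were thus highest here too, at levels where up to 4 of the 5 markers were at 0 in a library. The part of cell composition in the Myog and Myf5 differences was not tested.

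Genes whose levels ran most like each member across the 15 libraries were taken by Pearson's r of log2 CPM, as a description. For Myog these were Sfrp4, a secreted Wnt antagonist (r = 0.981), Cnp, an enzyme of myelin (0.980), and Klk1, a kallikrein protease (0.980), and within groups their r was 0.840, 0.802 and 0.852. For Myf5 they were Myo15a (0.945), Tacr1 (0.887) and Trh (0.877), at 0.344, 0.216 and 0.254 CPM on average, and within groups 0.844, 0.738 and 0.641. Pax7 ran closest to LOC108352013 (0.862), Ackr2 (0.858) and Vcp (0.830), Myod1 to Kifc3 (0.813), Xrcc1 (0.806) and Ubxn11 (0.795), and Myf6 to LOC100909828 (0.893), Nif3l1 (0.880) and Hbb (0.877). Among the members, Myog and Myf5 had an r of 0.788 over all libraries and 0.287 within groups. Their likeness lay mostly in the group differences, while Myog and Myf6 had -0.119 over all libraries and 0.689 within groups. The points share groups, depth and tissue composition.

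RefSeq promoters (GRCr8) were matched for 4 of the 5 members, and Myod1 had no entry. The 250 bases before the start were searched on both strands for the E-box CANNTG, to which the myogenic factors bind, for the 9 letters TCAGGTTTC known as MEF3, a homeobox protein site, and for the MEF2 motif. The MEF2 motif was searched as YTAWWWWTAR, with Y for C or T, W for A or T and R for A or G. Of 33469 promoters 65.5% held an E-box, 0.370% the MEF3 letters and 2.96% the MEF2 motif. Myog held 2 E-boxes, starting 157 and 31 bases before the start, and 1 MEF3 match at 103 bases. Myf6 held 1 E-box and 1 MEF2 motif, and Myf5 and Pax7 held none of these letters in this window. In Myog the stretch ctatatttat differed from the MEF2 motif searched only in its last letter, so it was not counted as a match. The sequences of the members that were called are shown for comparison, with matches in capitals, for Myog at chr13:48297226-48297475 (plus strand) and for Myf5 at chr7:44692639-44692888 (minus strand). No matches overlapped, and Myf5 has no capitals.
Myog: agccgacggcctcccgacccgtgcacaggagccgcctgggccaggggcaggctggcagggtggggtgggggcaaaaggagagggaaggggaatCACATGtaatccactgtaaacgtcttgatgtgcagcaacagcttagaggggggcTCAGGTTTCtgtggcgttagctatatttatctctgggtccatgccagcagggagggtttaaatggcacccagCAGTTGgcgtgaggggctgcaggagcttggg
Myf5: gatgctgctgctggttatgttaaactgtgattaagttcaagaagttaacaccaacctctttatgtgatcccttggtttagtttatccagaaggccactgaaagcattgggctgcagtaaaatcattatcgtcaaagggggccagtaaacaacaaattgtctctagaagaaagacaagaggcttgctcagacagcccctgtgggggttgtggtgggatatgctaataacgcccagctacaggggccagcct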

How the data were processed

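Total RNA of rat multifidus was sequenced as paired-end libraries. Per the labels and methods, the authors trimmed reads (Trimmomatic 0.38), aligned them to rn6 (HISAT2 2.1.0, RefSeq annotation), sorted them (SAMtools 1.9) and quantified genes (StringTie 2.1.3b). Strand and multi-mapping reads were not stated. The authors deposited raw counts per gene without normalization, TPM values used here to compare genes, and FPKM values not used here. Groups came from the labels.

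Counts of all 15 libraries were fitted in R 4.3.3 with edgeR 4.0.16 (TMM factors, filterByExpr, robust quasi-likelihood F-test, 1 coefficient per group), and a gene was called where its p, adjusted by Benjamini-Hochberg over all tested genes, was under 0.05. This fit, which takes the spread from all 15 libraries, replaced the exactTest named in the methods. An exactTest rule (fold change of at least 2, unadjusted p under 0.05) served as an alternative. The methods name Benjamini-Hochberg adjustment and then a P under 0.05, and using the unadjusted p was a choice made here. Fold changes compare relative abundance. Other alternatives were RLE factors, library size only, other count filters (any count, or at least 10 in every library), removal of a gene length trend, a replicate block, both libraries numbered 4 left out, each library left out and DESeq2 1.42.0. The test was tested on simulated data. Log2 CPM used a prior count of 2. Confidence intervals are 95% and cover the spread between libraries, while counting error is the square root of the count as a percent of it.

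Members and lists were chosen with earlier results of these data known. Besides the members, genes were named by rule. It took the 3 most abundant of each list and, in 3 comparisons, up to 4 called genes of each list with the smallest adjusted p, of which examples are given, and the 3 genes most like each member in log2 CPM. Cdh15, Sdc4 and Fbxo32 were named outside this rule, as genes that ran unlike the examples of their lists.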

Additional observations from a re-analysis of the deposited data

Results flagged for a closer look

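In the 10 groups of 4 libraries examined, which were the 5 members in the pMT and in the pMT/VitD group, Dixon's test set 0 values apart from the remaining 3, and for 0 of 5 members did the effect of pMT differ with and without VitD in the interaction test.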

How the results depend on the processing

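Of 1075 log2 fold changes of the members under alternatives, 1012 kept direction and side of the threshold, 9 lost a call, 4 gained one and 50 changed sign, none of them for a called value. Of these 50, 11 came from scaling by library size only, which shifts most genes together, and the other 39 were at most 0.15 in size. The cause of these changes was not tested. Adjusted p-values of DESeq2 for Myf5 and Pax7 in pMT/VitD against pMT were not given by the tool.

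DESeq2 was run on 24728 genes with its own filter and the main analysis on 17201, so tool and gene set changed together. On those 24728 genes edgeR's test called 198 genes in surgery against control and 298 in pMT against surgery. With DESeq2, genes called were 963 in surgery against control (266 in the main analysis), 726 in pMT against surgery (334), 1 in VitD against surgery (0), 2177 in pMT/VitD against surgery (1279), 97 in pMT/VitD against pMT (0), 2421 in VitD against control (1492) and 3625 among the 5 groups (2035). Members called were 2 in VitD against control and 2 among the 5 groups, in place of 1. Myod1 turned to 0.0064 in surgery against control (-0.014) and 0.0056 in pMT/VitD against pMT (-0.0095). RLE factors gave Myod1 0.0056 and 0.0090 in these comparisons.

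Without both libraries numbered 4, genes called were 716 in surgery against control, 541 in pMT against surgery, 3462 in pMT/VitD against surgery, 3136 in pMT/VitD against pMT, 2589 in VitD against control, 4 in pMT against control, 11 in pMT/VitD against control and 5125 among the groups. Members called were 2 in VitD against control and 2 among the groups. Myod1 was 0.015 in surgery against control and 0.027 in pMT/VitD against pMT, Pax7 -0.062 in pMT against surgery (0.0075), and Myog 0.11 in pMT/VitD against pMT (-0.084).

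The exactTest rule called 1169 genes in surgery against control, 671 in pMT against surgery, 104 in VitD against surgery, 54 in pMT/VitD against pMT, 156 in pMT against control and 152 in pMT/VitD against control. Myod1 was 0.013 in surgery against control and Pax7 -0.0030 in pMT against surgery. It was not applied to the comparison of 8 with 5 libraries or to the test of 5 groups.

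With the length trend removed, genes called were 542 in surgery against control and 2378 in VitD against control, members called among the groups were 2, Myf6 was -0.025 in pMT/VitD against pMT (0.081), and Pax7 0.032 in pMT libraries against operated libraries without pMT (-0.046). With at least 10 counts in every library, members called among the groups were 2.

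Scaling by library size only moved the median of all genes to 0.25 in surgery against control, 0.27 in VitD against control, 0.13 in pMT against control, -0.12 in pMT against surgery, -0.32 in pMT/VitD against surgery, -0.21 in pMT/VitD against pMT and -0.23 in pMT libraries against operated libraries without pMT. Genes called were 997 in surgery against control (969 higher, 28 lower, against 215 and 51), 2795 in VitD against control (2660 higher, 135 lower, against 942 and 550), 3250 in pMT/VitD against surgery (98 higher, 3152 lower, against 413 and 866) and 3579 among the groups. In pMT against surgery 23 were higher and 314 lower (68 and 266), and in pMT libraries against operated libraries without pMT 458 and 5015 (1723 and 2281). Members called were 2 in pMT/VitD against surgery, 2 in VitD against control and 2 among the groups, Myf5 being added. Before these medians are subtracted, Myod1 was 0.25 and Myf6 0.15 in surgery against control, Pax7 -0.14 and Myod1 -0.054 in pMT against surgery, Myod1 -0.25 and Myf6 -0.025 in pMT/VitD against surgery, Myf6 -0.091 in pMT/VitD against pMT, Myod1 0.24 in VitD against control, Myf5 0.018 in pMT against control, and Myod1 -0.15 and Myf6 -0.0596 in pMT libraries against operated libraries without pMT. Relative to the medians these values are, in the same order, 0.0014, -0.098, -0.021, 0.067, 0.076, 0.30, 0.11, -0.028, -0.11, 0.079 and 0.17.

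Replicate numbers did not pair the libraries, since deviations of same-numbered libraries correlated at -0.50 to 0.17. With a replicate block, genes called were 106 in surgery against control, 78 in pMT against surgery, 350 in pMT/VitD against surgery, 2415 in pMT libraries against operated libraries without pMT (4004) and 1080 among the groups, and the number of members called was the same in all 10 comparisons.

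With each library left out in turn, a group left with 1 library being assumed to vary like the others, genes called ranged from 8 (without control 1) to 1022 (without VitD 1) in surgery against control, 27 (without surgery 1) to 740 (without VitD 1) in pMT against surgery, 0 to 1 in VitD against surgery, 122 (without surgery 2) to 2199 (without pMT/VitD 4) in pMT/VitD against surgery, 13 (without control 1) to 2396 (without VitD 3) in VitD against control, 0 to 1 in pMT against control, 0 to 2 in pMT/VitD against control, 2007 (without surgery 2) to 4633 (without pMT/VitD 4) in pMT libraries against operated libraries without pMT and 1133 to 2754 (the same libraries) among the groups. Members called ranged from 0 to 1 in surgery against control, pMT against surgery and VitD against control, and from 1 to 2 in pMT libraries against operated libraries without pMT and among the groups. Myod1 ranged from -0.14 to 0.13 in surgery against control, -0.24 to 0.087 in VitD against surgery, -0.063 to 0.033 in pMT/VitD against pMT, -0.25 to 0.088 in VitD against control, -0.053 to 0.21 in pMT against control and -0.063 to 0.20 in pMT/VitD against control. Pax7 ranged from -0.15 to 0.18 in pMT against surgery, -0.24 to 0.094 in VitD against surgery and -0.12 to 0.041 in pMT libraries against operated libraries without pMT. Myog ranged from -0.051 to 0.16 in VitD against surgery and -0.20 to 0.020 in pMT/VitD against pMT, Myf6 from -0.0081 to 0.20 in pMT/VitD against pMT and -0.070 to 0.096 in VitD against control, and Myf5 from -0.24 to 0.070 in pMT against control and -0.062 to 0.19 in pMT/VitD against control. Depth limits Myf5 most among the members, with 58 counts in its lowest library.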
